A study of Mus musculus with 6 samples.

Results

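Sterol handling in lung group 2 innate lymphoid cells (ILC2s) was followed through 8 genes named as SREBP, LXR, cholesterol synthesis and efflux genes: *Srebf1*, *Srebf2*, *Insig1*, *Hmgcs1*, *Sqle*, *Abca1*, *Abcg1* and *Nr1h2*. The genes were taken by name, and all 8 were found among the 16381 genes of the deposited table. They were read in 6 bulk RNA-seq samples of activated ILC2s (aILC2s), 3 per group. All cells came from the lungs of wild-type BALB/cJ mice of 6 to 8 weeks, described in the methods as female, that had received intranasal IL-33, an epithelial cytokine that activates ILC2s, at 0.5 µg a day for 3 days. The sorted CD45+ lineage- ST2+ CD127+ cells were then cultured for 24 h with melatonin at 250 µM, the melatonin group, or with the DMSO vehicle alone, the vehicle group. The paper gives no medium or cytokine for these RNA-seq cultures, and a medium shared by both groups is assumed. The comparison concerns melatonin on cells that were already activated in vivo. No source states that the 3 samples of a group came from separate mice or cultures, so p-values measure the spread between these samples only.

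Cells keep their cholesterol within narrow limits by opposing controls. SREBP-2, and to a lesser degree SREBP-1, are membrane-bound transcription factors that SCAP escorts from the endoplasmic reticulum when sterol is scarce, after which they are cleaved and switch on synthesis and uptake genes, whereas INSIG proteins hold them back when sterol is plentiful. The liver X receptors, with their RXR partners, are switched on by oxysterols and raise the transporters that export cholesterol. These factors are regulated largely by cleavage or ligand, so that the level of their mRNA is not their activity, and neither activity nor cholesterol was measured here.

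The estimated read totals were 17981194 to 20511711 in the vehicle samples and 17056268 to 19952558 in the melatonin samples. Over all genes, 7094 of 14419 tested passed an adjusted p of 0.05 (limma with Benjamini-Hochberg adjustment), 3529 higher and 3565 lower, and with a correction for transcript length this split became 2654 higher and 4178 lower. All 14 ILC2 markers were detected in every sample, but 9 of them were called lower with melatonin, 2 higher and 3 not called. *Gata3*, the defining transcription factor, was 17890 to 24588 normalized counts over the 6 samples and was not called, while *Klrg1* went from a mean of 6799 to 1518, *Il13* from 1876 to 409, *Il7r* from 1995 to 1032 and *Thy1* from 389 to 53.7. The summed level of the 14 was 226200 to 241100 in vehicle and 153100 to 172100 in melatonin samples. The samples also differed in sex-linked transcripts, and 4 of the 6 went against the stated female sex. The Y-linked genes *Eif2s3y*, *Ddx3y*, *Uty* and *Kdm5d* were found in all 3 vehicle samples and in melatonin replicate 1 and were listed at 0 in melatonin replicates 2 and 3, where *Xist* stood at 579 and 1091 against 0 to 13.6 in the other 4 samples. Whether mice of both sexes were used or samples were exchanged was not tested, and every melatonin against vehicle value rests on the labels as given. Results are therefore also given without melatonin replicates 2 and 3, which leaves a single melatonin sample whose spread is assumed to equal that of the vehicle samples. Summed markers of several other cell types were also lower with melatonin, from 263 to 343 down to 24.1 to 36.0 for NK cells and ILC1s, from 273 to 306 down to 0.93 to 14.2 for neutrophils and from 1210 to 1349 down to 458 to 870 for T cells. The summed level of the 7 lung epithelium markers overlapped, from 935 to 2325 and from 1042 to 1237, with *Epcam* higher with melatonin (mean 667 and 1097), whereas *Scgb1a1*, *Sftpc*, *Sftpa1* and *Krt8* were near 0 with melatonin, with *Scgb1a1* at 21.5 to 1045 with vehicle and 0 to 1.01 with melatonin. These 4 passed the filter on low values only through the vehicle samples, so their calls are not read. The part of these cell types in the sterol gene values was not tested. In bulk RNA, fewer cells of a type cannot be told apart from less RNA per cell.

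Sequence features that can be read from the genome were collected before the values, because they show which known control elements lie near these genes. The promoters below run from 250 bases before to 50 bases after the transcription start (GRCm39). They are shown for the members in which a sterol regulatory element (TCACNCCA) or a DR4, the direct repeat spaced by 4 bases to which LXR and RXR bind, was matched on either strand. Capitals mark these motifs, CCAAT boxes (CCAAT) and E-boxes (CACGTG), none of which overlapped another here.
*Srebf2*, chr15:82031132-82031431, plus strand: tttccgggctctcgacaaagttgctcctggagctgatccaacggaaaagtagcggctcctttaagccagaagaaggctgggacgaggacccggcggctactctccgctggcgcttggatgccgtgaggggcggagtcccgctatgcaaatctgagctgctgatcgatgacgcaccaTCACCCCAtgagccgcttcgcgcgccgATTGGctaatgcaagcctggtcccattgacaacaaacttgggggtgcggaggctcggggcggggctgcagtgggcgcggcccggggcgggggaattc
*Hmgcs1*, chr13:120151732-120152031, plus strand: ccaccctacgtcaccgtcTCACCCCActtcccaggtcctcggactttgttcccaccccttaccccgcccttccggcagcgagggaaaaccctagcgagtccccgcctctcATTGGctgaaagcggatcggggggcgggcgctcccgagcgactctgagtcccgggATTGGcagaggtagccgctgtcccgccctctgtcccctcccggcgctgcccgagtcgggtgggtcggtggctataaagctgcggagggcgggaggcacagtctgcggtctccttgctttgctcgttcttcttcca
*Abca1*, chr4:53159851-53160150, minus strand: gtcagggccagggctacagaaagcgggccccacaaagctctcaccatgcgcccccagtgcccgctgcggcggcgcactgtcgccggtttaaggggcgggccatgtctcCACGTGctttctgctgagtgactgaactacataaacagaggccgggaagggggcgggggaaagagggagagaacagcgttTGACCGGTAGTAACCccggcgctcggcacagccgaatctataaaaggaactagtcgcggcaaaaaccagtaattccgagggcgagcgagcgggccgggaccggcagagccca

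The sterol regulatory element, the sequence that SREBPs bind, began 74 bases before the start of *Srebf2* and 232 bases before that of *Hmgcs1*. A CCAAT box, the site of the SREBP partner NF-Y, lay downstream of it in each promoter, once in *Srebf2* and in 2 places in *Hmgcs1*. Among the 8 members, 2 held the sterol regulatory element, 5 a CCAAT box, 2 an E-box and 1 the DR4. Among 21247 mouse promoters of the same length, the shares were 4.08%, 39.9%, 7.87% and 0.155%. The DR4 of *Abca1* lay on the opposite strand, from 62 to 48 bases before the start. Of the 23 enzymes of both synthesis lists, 17 held a CCAAT box and 2, *Hmgcs1* and *Msmo1*, the sterol regulatory element in this window. The motifs were chosen from general knowledge of these factors, and a match is a run of letters, not a bound site.

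*Srebf2* also hosts a microRNA. *Mir33* lies at chr15:82082323-82082391 on the plus strand, inside *Srebf2* and without sharing exon bases with it, and its mature RNA is known to act on transporter mRNAs in mice. The mature sequence (RefSeq) and the matches to its seed in the 3′ UTRs of the 2 transporters follow, with the seed, bases 2 to 8, or its match in capitals.
mmu-miR-33-5p: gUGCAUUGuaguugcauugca
*Abca1*, chr4:53033795-53033815, minus strand: cactattCAATGCAatgcact
*Abca1*, chr4:53033790-53033810, minus strand: ttcaatgCAATGCActtcaat
*Abca1*, chr4:53033780-53033800, minus strand: tgcacttCAATGCAacgagaa
*Abcg1*, chr17:31333969-31333989, plus strand: cgcaacgCAATGCAacgcaat
*Abcg1*, chr17:31333979-31333999, plus strand: tgcaacgCAATGCAgacagtg

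The matches were 3 in the *Abca1* UTR of 3159 bases and 2 in the *Abcg1* UTR of 3713 bases, and within each gene the printed windows overlap. The other 6 members held 0 matches. Of 12066 3′ UTRs of tested genes, 978 (8.11%) held at least 1. The microRNA itself was not measured in these libraries.

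All 8 members passed the filter on low values. *Abcg1*, *Nr1h2*, *Hmgcs1* and *Sqle* were higher with melatonin and *Srebf2* was lower, while *Srebf1*, *Insig1* and *Abca1* did not pass the test. This is 5 of 8 called, against a background of 49.2% of all tested genes, with 24.5% called higher and 24.7% called lower. In the 4 higher members every melatonin sample lay above every vehicle sample, and in *Srebf2* every one lay below. Over all genes, 30.0% lay wholly above, 30.3% wholly below and 60.4% in either direction. The median log2 fold change of the 8 members was 0.26 and that of all tested genes was -0.0046. Read against these shares, the count of called members was near the background, and the results lie in the individual genes.

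**Figure D1:**
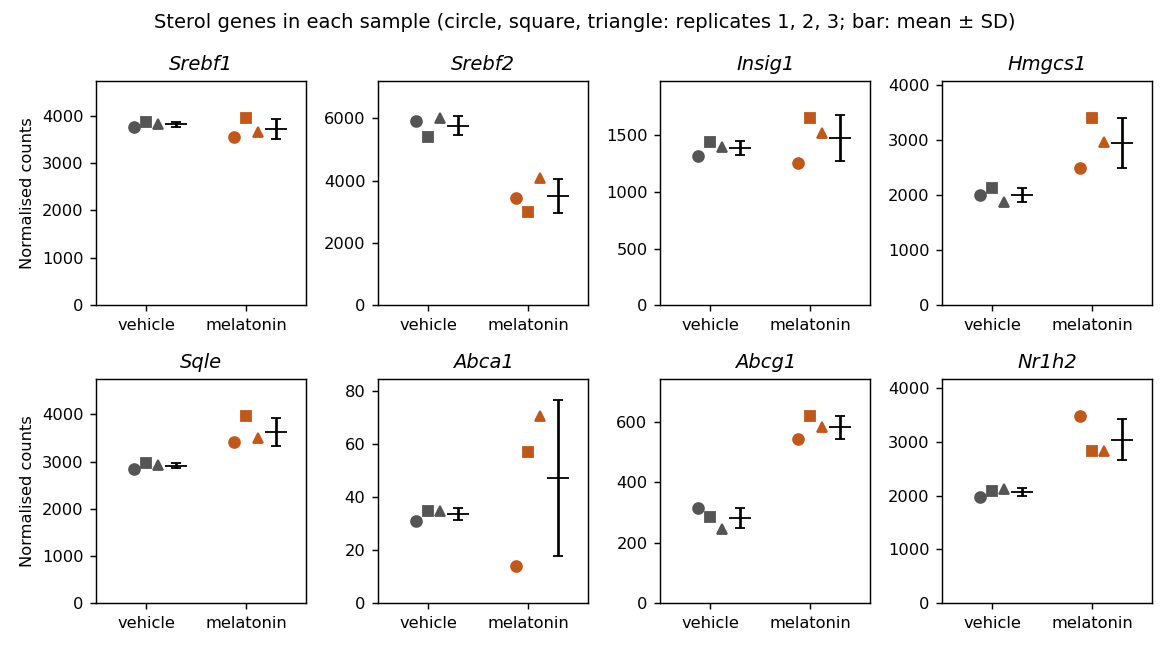
Normalized counts (vertical axes, linear and starting at 0) of the 8 sterol genes in each vehicle (grey) and melatonin (orange) sample, with replicates 1, 2 and 3 as circle, square and triangle and bars for mean ± SD (n = 3). *Srebf2* lay lower and *Hmgcs1*, *Sqle*, *Abcg1* and *Nr1h2* higher in all 3 melatonin samples, whereas the melatonin samples of *Abca1* ran from 14.0 to 70.4.

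The sensors came first. *Srebf2* (ENSMUSG00000022463, chr15:82031382-82093201, plus strand) encodes SREBP-2, the main activator of cholesterol synthesis and uptake genes. Its normalized counts were 5901, 5407 and 5999 in the vehicle samples and 3442, 2990 and 4084 in the melatonin samples. All 3 melatonin samples were below all vehicle samples. The mean fell from 5769 ± 317 to 3506 ± 550 (SD, n = 3 per group), a ratio of 0.608. The log2 fold change was -0.73 (SE 0.11, 95% interval -0.99 to -0.47, limma adjusted p = 0.001). The call was kept in all 20 alternatives, and without melatonin replicates 2 and 3 the value was -0.74.

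*Srebf1* (ENSMUSG00000020538, chr11:60089913-60113407, minus strand) encodes the SREBP-1 isoforms, which act more on fatty acid genes and of which SREBP-1c is itself an LXR target. Its normalized counts were 3754, 3871 and 3815 with vehicle and 3547, 3940 and 3657 with melatonin. The groups overlapped, and the vehicle samples were the tightest of the 8 genes, with a coefficient of variation of 1.53%. The log2 fold change was -0.04 (SE 0.07, 95% interval -0.20 to 0.13, limma adjusted p = 0.68). After the correction for transcript length it was -0.28 with an adjusted p of 0.0175. The table gives gene totals, so that the SREBP-1a and SREBP-1c transcripts were not separated, and *Srebf1* shares 114 exon bases with *Rai1* on the other strand (726 with vehicle and 659 with melatonin, not called).

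The balance between both SREBP mRNAs was read as a ratio within each sample. The log2 ratio of *Srebf2* to *Srebf1* was 0.65, 0.48 and 0.65 in the vehicle samples and -0.04, -0.40 and 0.16 in the melatonin samples. The mean went from 0.60 ± 0.10 to -0.09 ± 0.28, a difference of -0.69. The ratio was lower in 3 of 3 melatonin samples, but the two-sided exact permutation test of 3 against 3 samples cannot go below p = 0.1, which was the value obtained (0.133 after adjustment over the 4 ratios computed).

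*Insig1* (ENSMUSG00000045294, chr5:28276315-28283668, plus strand) encodes the retention protein of the SREBP-SCAP complex and is itself a well known SREBP target. The samples stood at 1316, 1438 and 1395 normalized counts with vehicle and at 1252, 1648 and 1523 with melatonin. The groups overlapped, with melatonin replicate 1 the lowest and replicates 2 and 3 the highest of the 6 samples. The log2 fold change was 0.08 (SE 0.11, 95% interval -0.17 to 0.33, limma adjusted p = 0.55). It was -0.0014 without melatonin replicate 2 and -0.14 without replicates 2 and 3. The log2 ratio of *Insig1* to *Srebf2* was -2.06 ± 0.13 with vehicle and -1.25 ± 0.34 with melatonin, higher in 3 of 3 melatonin samples (exact permutation p = 0.1, the smallest possible, or 0.133 adjusted over 4 ratios, n = 3 per group).

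The genes around these sensors were mixed. Of 8 genes for the SREBPs and their escort and processing, 3 were higher, 1 lower and 4 not called (median log2 fold change 0.07), which is 50% called against 49.2% over all genes tested. *Insig2*, the second retention protein, was 767, 775 and 712 with vehicle and 1396, 1136 and 1055 with melatonin, above in every sample (log2 fold change 0.66, SE 0.11, limma adjusted p = 0.0018). *Scap*, the escort, was 1757 ± 57.0 and 1711 ± 65.8 (n = 3 per group) with a log2 fold change of -0.04 (limma adjusted p = 0.70), or -0.28 with the length correction (limma adjusted p = 0.0186). The proteases *Mbtps1* and *Mbtps2* had values of 0.22 and 0.41 with limma adjusted p of 0.033 and 0.030. Both calls were lost without melatonin replicate 2 (0.19 and 0.29), vehicle replicate 2 (0.21 and 0.34) or vehicle replicate 3 (0.23 and 0.43), that of *Mbtps1* also without vehicle replicate 1 (0.21), and that of *Mbtps2* also without melatonin replicates 2 and 3 together (0.32). *Mbtps2* is X-linked, and the part of the sex-linked difference between the samples in its value was not tested.

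Sterols also speed the breakdown of proteins of their own synthesis and sensing. Of the 10 genes listed for this system, 6 were higher, 1 lower and 3 not called, or 60% higher and 10% lower beside 24.5% and 24.7% over all genes. The list also holds a deubiquitinase, which was among the higher genes, so its count gives no direction for the breakdown. *Rnf139*, the ligase TRC8, rose by a log2 fold change of 0.88 (limma adjusted p = 0.006), and *Faf2*, which recruits the extraction machinery, by 0.63 (limma adjusted p = 0.00033). *Marchf6*, a ligase that degrades squalene epoxidase, fell from 605 ± 89.4 to 380.2 ± 39.9 (n = 3 per group, log2 fold change -0.66, limma adjusted p = 0.0041).

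The synthesis members both rose. *Hmgcs1* (ENSMUSG00000093930, chr13:120151915-120170470, plus strand) encodes the cytosolic HMG-CoA synthase that opens the committed part of the mevalonate pathway. Its normalized counts were 1997, 2127 and 1874 with vehicle and 2487, 3392 and 2972 with melatonin. All melatonin samples were above all vehicle samples, and replicate 1 was the lowest of them. The mean rose from 1999 ± 127 to 2950 ± 453 (n = 3 per group) with a log2 fold change of 0.55 (SE 0.12, 95% interval 0.29 to 0.81, limma adjusted p = 0.0046). Without melatonin replicates 2 and 3 the value was 0.32 (limma adjusted p = 0.0292), and with the length correction it was 0.32 and lost the call (limma adjusted p = 0.0712).

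*Sqle* (ENSMUSG00000022351, chr15:59186869-59203043, plus strand) encodes squalene epoxidase, a rate-limiting enzyme of the later pathway. Vehicle samples had 2852, 2969 and 2919 normalized counts and melatonin samples 3416, 3966 and 3500. The groups did not overlap, and the vehicle samples again lay close together. The mean rose from 2914 ± 58.6 to 3627 ± 296 (n = 3 per group) with a log2 fold change of 0.31 (SE 0.08, 95% interval 0.13 to 0.50, limma adjusted p = 0.012). It was 0.23 without melatonin replicates 2 and 3 (limma adjusted p = 0.0314) and 0.12 with the length correction, where the call was lost (limma adjusted p = 0.264). *Sqle* shares 470 exon bases with *Washc5* on the other strand, which was 1602 with vehicle and 1773 with melatonin and was not called. *Hmgcs1* shares 77 exon bases with *Nim1k* (3.78 and 5.54) and 557 with *Gm48342*, and *Srebf2* shares 686 with *Shisa8* (1.595 and 1.681) and 310 with *Gm56711*, all on the other strand, and the *Gm48342* and *Gm56711* levels were not analysed here.

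**Figure D2:**
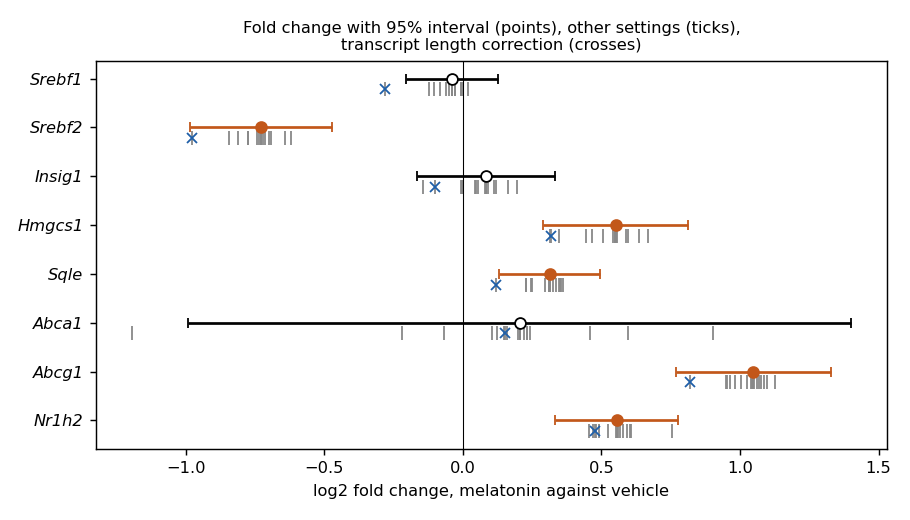
Log2 fold change of melatonin against vehicle (horizontal axis) for each of the 8 sterol genes, with 95% intervals from limma on 3 samples per group, filled orange points for an adjusted p under 0.05, grey ticks for the alternatives and blue crosses for the transcript length correction. The intervals of *Srebf1*, *Insig1* and *Abca1* include 0, and the alternatives of *Abca1* run from -1.19 to 0.90.

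The log2 ratio of *Hmgcs1* to *Sqle* was -0.51, -0.48 and -0.64 with vehicle and -0.46, -0.23 and -0.24 with melatonin. Every melatonin value was above the vehicle values, by 0.24 on average, with the smallest exact permutation p that 3 against 3 samples allow (0.1, or 0.133 adjusted over 4 ratios).

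The rest of the pathway was mixed. Of the 10 genes of the mevalonate steps, 4 were higher, 1 lower and 5 not called, with a median log2 fold change of 0.21 and 50% called against 49.2% over all genes. *Acat2*, the thiolase that precedes *Hmgcs1*, was higher by 0.50 (limma adjusted p = 0.003). *Idi1*, the isomerase, was higher by 0.30 (limma adjusted p = 0.032), a call that was kept only without melatonin replicate 1 when samples were left out in turn and was lost without melatonin replicate 2 (0.22) or 3 (0.29) or vehicle replicate 1 (0.30), 2 (0.34) or 3 (0.26). Without melatonin replicates 2 and 3 together *Idi1* was at 0.12 (limma adjusted p = 0.27) and *Acat2* at 0.33 (limma adjusted p = 0.0128). *Fdps*, which makes farnesyl diphosphate, was lower (log2 fold change -0.51, limma adjusted p = 0.039). Its melatonin samples were 1941, 2936 and 3397 against 3621 to 3937 with vehicle, and the call was lost without melatonin replicate 2 (-0.57) or vehicle replicate 1 (-0.49), 2 (-0.49) or 3 (-0.55). The value of *Fdps* was -0.28 without melatonin replicate 1 (limma adjusted p = 0.0219) and -0.98 without replicates 2 and 3.

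Of the 13 genes from squalene to cholesterol, 5 were higher, 1 lower and 7 not called, with a median of 0.22 and 46.2% called against 49.2% over all genes. *Msmo1*, the sterol C4-methyl oxidase, was 1762, 2006 and 1777 with vehicle and 2772, 3937 and 3402 with melatonin (log2 fold change 0.85, SE 0.13, limma adjusted p = 0.00081). *Tm7sf2*, a sterol C14-reductase, was 178, 170 and 146 with vehicle and 351, 326 and 336 with melatonin (log2 fold change 1.04, SE 0.13, limma adjusted p = 0.00039). Neither gene's groups overlapped. *Sc5d*, the C5-desaturase, was higher by 0.38 (limma adjusted p = 0.0054). *Cyp51*, the lanosterol demethylase, was higher by 0.43 (limma adjusted p = 0.029), a call that was lost without melatonin replicate 2 (0.31) or 3 (0.37) or vehicle replicate 1 (0.42), 2 (0.46) or 3 (0.41). Without melatonin replicates 2 and 3 together it was 0.079 (limma adjusted p = 0.385).

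*Fdft1*, squalene synthase, was 1337 with vehicle and 1480 with melatonin and was not called (log2 fold change 0.14, limma adjusted p = 0.24), although without melatonin replicate 1 it was 0.23 with a limma adjusted p of 0.021 and without melatonin replicates 2 and 3 it was -0.043. Over both lists, 9 of 23 enzymes were higher and 2 lower, so that 47.8% were called against 49.2% of all genes (39.1% higher against 24.5%, and 8.7% lower against 24.7%). The plot by pathway step places *Hmgcs1* and *Sqle* among them, with *Tm7sf2* at the top.

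**Figure D3:**
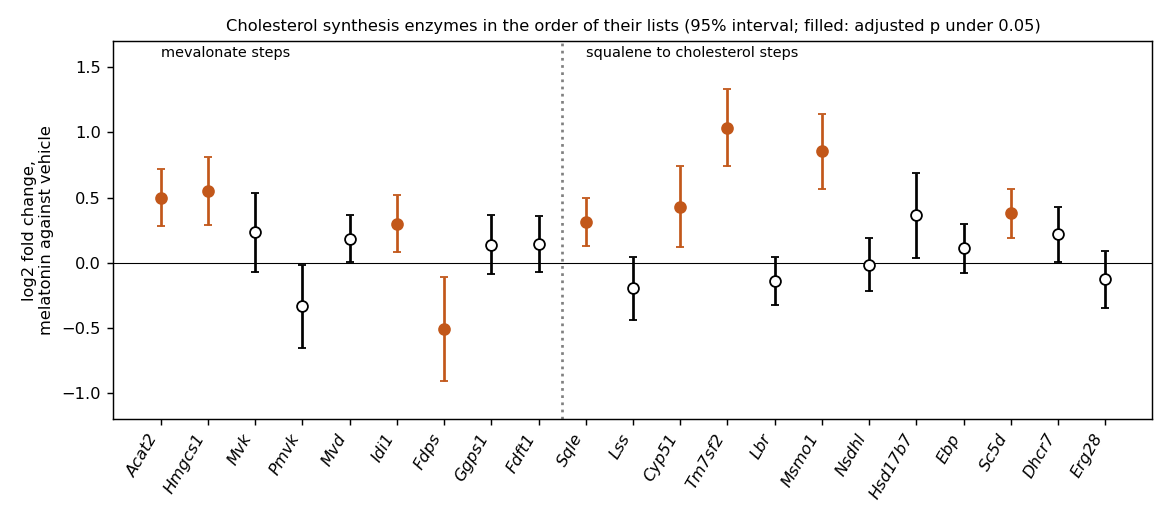
Log2 fold change of melatonin against vehicle (vertical axis) with 95% limma intervals for 21 of the 23 cholesterol synthesis enzymes in list order, mevalonate steps left of the dotted line and squalene to cholesterol steps right of it, with filled points for an adjusted p under 0.05 (n = 3 per group). Of the 21 plotted, 8 lay above and 1, *Fdps*, below 0 with a call.

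The receptor and the transporters made up the efflux side. *Nr1h2* (ENSMUSG00000060601, chr7:44199036-44203406, minus strand) encodes LXRβ, the broadly expressed liver X receptor. Its normalized counts were 1979, 2082 and 2133 with vehicle and 3484, 2824 and 2832 with melatonin. All melatonin samples were above all vehicle samples, and replicate 1 was the highest. The mean rose from 2065 ± 78.6 to 3047 ± 379 (n = 3 per group) with a log2 fold change of 0.55 (SE 0.10, 95% interval 0.33 to 0.78, limma adjusted p = 0.0019). The call was kept in all 20 alternatives, with 0.48 under the length correction and 0.76 without melatonin replicates 2 and 3.

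*Nr1h3*, which encodes LXRα, was near the limit of detection, with 1.87 to 11.2 normalized counts in vehicle and 5.46 to 10.3 in melatonin samples, and did not pass the test (limma adjusted p = 0.44). Of the 7 genes for LXRs, RXRs and corepressors, 3 were higher, *Nr1h2*, *Rxrb* and *Rxrg*, and 1 was lower (57.1% called, all genes 49.2%). *Rxrb*, an LXR partner, was 1113, 1208 and 1228 with vehicle and 2486, 1850 and 1776 with melatonin, with no overlap (log2 fold change 0.77, SE 0.13, limma adjusted p = 0.0015). *Rxrg*, a low member of the same family that was named after its value was seen, was 51.1 ± 0.62 with vehicle and 118.8 ± 33.9 with melatonin (n = 3 per group, limma adjusted p = 0.0045).

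*Abcg1* (ENSMUSG00000024030, chr17:31276649-31336969, plus strand) encodes an ABC transporter that passes cholesterol to HDL particles. It was read at 314, 286 and 247 normalized counts with vehicle and at 543, 619 and 583 with melatonin. The lowest melatonin sample stood well above the highest vehicle sample. The mean rose from 282 ± 33.7 to 582 ± 38.0 (n = 3 per group), a ratio of 2.06, with a log2 fold change of 1.05 (SE 0.12, 95% interval 0.77 to 1.33, limma adjusted p = 0.00029). It kept its call in all 20 alternatives, and was 0.95 without melatonin replicates 2 and 3.

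*Abca1* (ENSMUSG00000015243, chr4:53030787-53159900, minus strand) encodes the transporter that loads lipid-poor apolipoprotein A-I. Its normalized counts were 30.8, 34.7 and 34.6 with vehicle and 14.0, 56.8 and 70.4 with melatonin. Melatonin replicate 1 was below and replicates 2 and 3 were above all vehicle samples, and the coefficient of variation went from 6.65% to 62.5%. The log2 fold change was 0.21 (SE 0.53, 95% interval -0.99 to 1.40, limma adjusted p = 0.77). Without melatonin replicate 1 it was 0.90 (limma adjusted p = 0.0155), without replicate 2 -0.07, without replicate 3 -0.22, and without replicates 2 and 3 -1.19 (limma adjusted p = 0.0295), so that no direction can be given.

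Other values moved with this split. Replicates 2 and 3 were the samples without Y-linked transcripts. The summed level of 12 macrophage and monocyte markers was 425, 2455 and 1819 in melatonin replicates 1, 2 and 3 against 3979 to 4845 in the vehicle samples. Except in melatonin replicate 1, most of this sum was *Chil3*. It was 54.2, 1640 and 957 with melatonin and 2373 to 3460 with vehicle, whereas *Cd68* was 108, 120 and 150 with melatonin. In the vehicle samples, with the higher sums, *Abca1* was 30.8 to 34.7. Of the 12 markers, 4 were called lower, of which *Adgre1* passed the filter on low values only through the vehicle samples, and 0 higher (all genes 24.7% lower and 24.5% higher). The low markers were mixed. *C1qa* and *C1qb* were listed at 0 in all 3 melatonin samples and lay between 1.05 and 15.9 in the vehicle samples. *Mertk* ran the other way, from 0, 0 and 5.25 with vehicle to 6.54, 4.37 and 11.1 with melatonin, and the groups of *Mrc1* and *Cd14* overlapped. The part of the sex-linked difference or of macrophages in the *Abca1* values, or in those of *Abcg1*, which macrophages also express, was not tested. The sort excluded cells with CD11b, CD11c or Gr-1 on their surface, and the markers above were still read in the sorted samples.

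The log2 ratio of *Abca1* to *Abcg1* was -3.31, -3.01 and -2.80 with vehicle and -5.18, -3.42 and -3.03 with melatonin. The groups overlapped, and the difference of -0.84 did not pass the exact permutation test (p = 0.2, n = 3 per group).

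**Figure D4:**
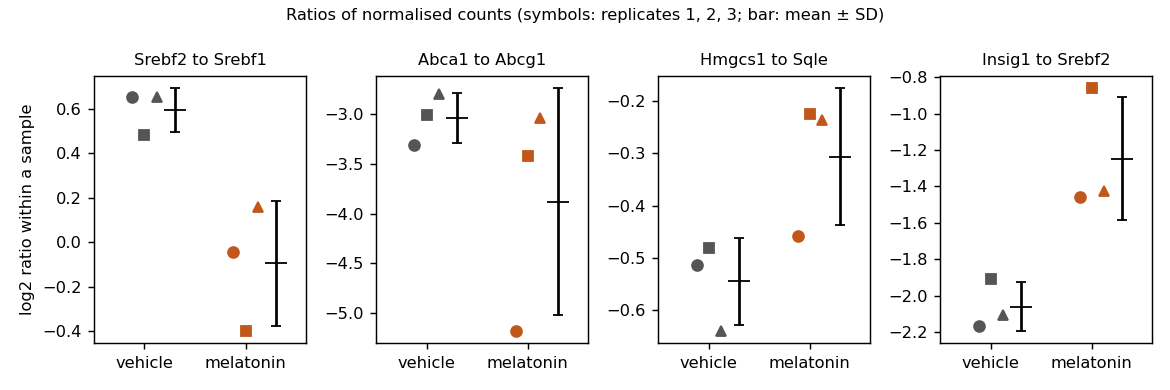
Log2 ratio of normalized counts (vertical axis) for the 4 pairs of sterol genes in each vehicle and melatonin sample, with bars for mean ± SD (n = 3 per group). The *Srebf2* to *Srebf1* ratio was lower and the *Insig1* to *Srebf2* ratio higher in all 3 melatonin samples, whereas the *Abca1* to *Abcg1* ratio overlapped.

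Of 10 measured efflux and other LXR target genes, 4 were higher, 2 lower and 4 not called (60% called, all genes 49.2%), with *Abcg5*, *Abcg8* and *Apoc1* not among the listed genes. *Mylip*, which encodes the ubiquitin ligase IDOL, had the largest rise, from 93.3, 68.4 and 64.0 with vehicle to 312, 262 and 259 with melatonin (log2 fold change 1.88, SE 0.19, limma adjusted p = 0.00014). Its groups did not overlap. *Smpdl3a*, a phosphodiesterase, was 189 to 215 with vehicle and 787, 356 and 326 with melatonin, with replicate 1 far above the others (log2 fold change 1.15, limma adjusted p = 0.011). The value was 0.75 without replicate 1 (limma adjusted p = 0.00164) and 1.95 without replicates 2 and 3. *Lpcat3*, a lysophospholipid acyltransferase, was higher by 0.24 (limma adjusted p = 0.022) and lost the call without melatonin replicate 2 (0.23) or vehicle replicate 1 (0.25), 2 (0.26) or 3 (0.22), and without melatonin replicates 2 and 3 together (0.17). *Arl4c*, a small GTPase, fell from 962 ± 40.3 to 500.1 ± 69.7 (n = 3 per group, log2 fold change -0.95, limma adjusted p = 0.00033). The other lower gene, *Apoe*, a lipoprotein ligand that macrophages make in quantity, was named after its values were seen. It was 73.7, 36.5 and 34.6 with vehicle and 2.80, 13.1 and 18.1 with melatonin (limma adjusted p = 0.015). *Apoe* lost the call without vehicle replicate 1 (-1.86) and was -3.61 without melatonin replicates 2 and 3. Like the summed macrophage markers it was lower with melatonin and lowest in melatonin replicate 1. Within the vehicle samples it was highest where that sum was lowest. The part of macrophages in its values was not tested.

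On the uptake and lysosomal side, 5 of 12 genes were higher, 1 lower and 6 not called (median log2 fold change 0.45, 50% called, all genes 49.2%). The higher genes include *Mylip*, also counted among the LXR targets, whose product lowers uptake, so the count gives no direction for uptake. *Npc2* and *Lipa*, which free cholesterol in lysosomes, were higher by 0.74 (limma adjusted p = 0.00035) and 0.71 (limma adjusted p = 0.00041), whereas *Npc1*, the membrane partner of NPC2, was 390 and 395 (log2 fold change 0.008, limma adjusted p = 0.97). *Stard3*, a lysosomal sterol transfer protein, was higher by 0.51 (limma adjusted p = 0.017) and lost the call without vehicle replicate 1 (0.49) or 2 (0.49), and it was 0.34 without melatonin replicate 1 and 0.85 without replicates 2 and 3. *Lrp1*, a scavenger receptor of low level here that was named after its values were seen, was the lower gene, from 53.5 ± 7.0 to 15.7 ± 5.49 (n = 3 per group, limma adjusted p = 0.0029).

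Of 16 sterol transfer and storage genes, 8 were higher, 2 lower and 6 not called, or 50% higher and 12.5% lower beside 24.5% and 24.7% over all genes. *Osbpl11* and *Osbpl9*, oxysterol-binding protein relatives, were higher by 0.94 (limma adjusted p = 0.00023) and 0.75 (limma adjusted p = 0.00032). *Soat1*, the sterol esterifying enzyme of most tissues, rose from 1057 ± 15.4 to 1516 ± 66.8 (n = 3 per group, log2 fold change 0.52, limma adjusted p = 0.00088). Its liver and gut counterpart *Soat2*, named after its values were seen, was 154, 152 and 97.6 with vehicle and 17.7, 32.8 and 31.2 with melatonin, below in every sample (log2 fold change -2.28, limma adjusted p = 0.00048). *Stard5*, a sterol transfer protein, was higher by 0.64 (limma adjusted p = 0.0054) and was 0.45 without melatonin replicates 2 and 3. Its SREBP-induced relative *Stard4* was not called (log2 fold change -0.18, limma adjusted p = 0.21), with -0.30 to -0.13 when samples were left out in turn. *Tmem97*, the sigma-2 receptor, an SREBP target that binds NPC1, fell from 2849 ± 78.3 to 1810 ± 287 (n = 3 per group, log2 fold change -0.67, limma adjusted p = 0.0018).

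Few genes of oxysterol synthesis and sensing were detected. Of 7 genes, 4 were listed and 3 tested, with 1 higher, *Hsd3b7* (log2 fold change 0.55, limma adjusted p = 0.046), and 1 lower, *Ch25h*. The *Hsd3b7* call was lost without any 1 of the 6 samples (0.40 to 0.64), and the value was 0.84 without melatonin replicates 2 and 3. *Ch25h*, which makes the LXR ligand and SREBP suppressor 25-hydroxycholesterol, was 10.3, 18.7 and 14.7 with vehicle and 0, 6.56 and 0 with melatonin. It passed the filter on low values only through its vehicle samples, so its call, which is part of the counts of lower genes here and over all sterol lists, is not read.

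The fatty acid genes usually placed under SREBP-1 were split, with 5 of 11 higher, 3 lower and 3 not called, against 24.5% higher and 24.7% lower over all genes, beside an uncalled *Srebf1*. *Elovl6* and *Acaca*, for elongation and for malonyl-CoA synthesis, fell from 405 to 151 (log2 fold change -1.43, limma adjusted p = 0.00017) and from 466 to 219 (-1.10, limma adjusted p = 0.0022), and *Fasn*, fatty acid synthase, fell from 4893 to 3441 (-0.52, limma adjusted p = 0.0055). *Me1* and *Acss2*, which supply NADPH and acetyl-CoA, were higher by 0.96 (limma adjusted p = 0.0009) and 0.90 (limma adjusted p = 0.00077), and *Acly*, *Mid1ip1* and *Fads1* by 0.43, 0.41 and 0.33 (limma adjusted p = 0.0031, 0.0069 and 0.010). Without melatonin replicates 2 and 3 *Mid1ip1* was at 0.25 and *Fads1* at 0.27. *Mid1ip1*, like *Mbtps2*, is X-linked, and the part of the sex-linked difference between the samples in its value was not tested. *Fasn*, *Acly*, *Mid1ip1* and *Fads1* were named after their values were seen.

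Over all 9 sterol lists, which hold 95 genes of which 88 were tested, 38 were higher (43.2%), 11 lower (12.5%) and 39 not called, with a median log2 fold change of 0.30, beside 24.5% higher and 24.7% lower among all genes. These genes have longer transcripts than most, with a median of 3932 bases against 2977 over all genes tested and 4217 for the 8 members. After the correction for transcript length, 24 were higher (27.3%) and 17 lower (19.3%), with a median of 0.12, beside 18.4% higher and 29% lower and a median of -0.10 over all genes. Of the sterol genes named here, the correction ended the calls of *Sc5d* (0.13), *Cyp51* (0.18), *Idi1* (0.14), *Lpcat3* (0.12), *Mbtps2* (0.25), *Fdps* (-0.41) and *Hsd3b7* (0.51) besides those of *Hmgcs1*, *Sqle* and *Mbtps1*. It also ended those of *Acly* (0.19) and *Fads1* (0.11) from the fatty acid list. Among the genes named here, *Srebf1* (-0.28), *Scap* (-0.28) and *Stard4* (-0.43) gained one. Without melatonin replicates 2 and 3, the median log2 fold change of the sterol genes was 0.23, beside 0.0018 over all genes.

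**Figure D5:**
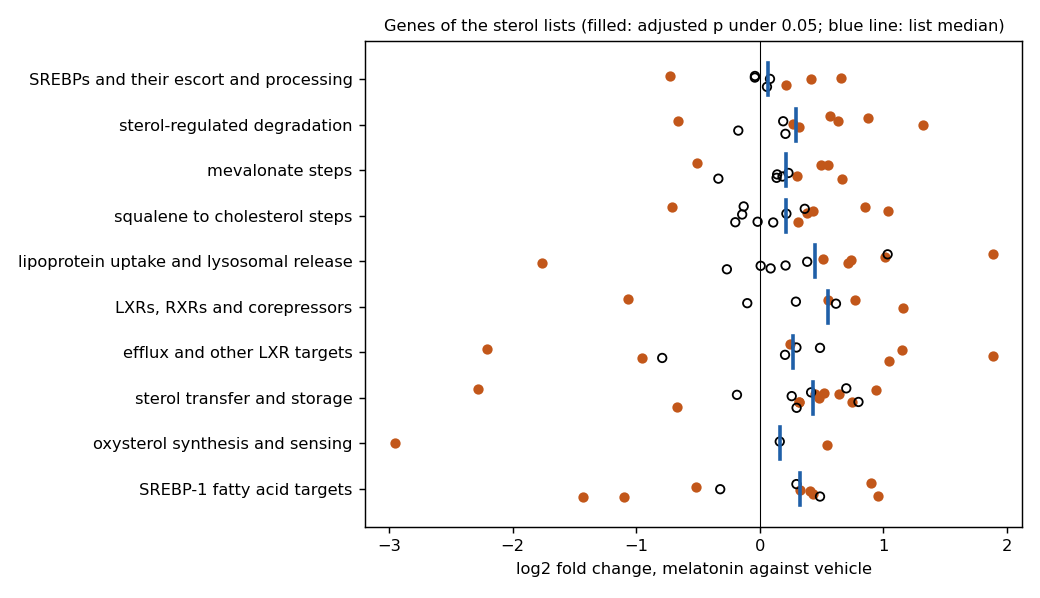
Log2 fold change of melatonin against vehicle (horizontal axis) for each tested gene of the 9 sterol lists and of the fatty acid list (rows), with filled points for a limma adjusted p under 0.05, open points for the others and a blue line at each list's median (n = 3 per group). Each list except that of oxysterol genes held at least 1 called gene on either side of 0, and the list medians lay between 0.07 and 0.56. In the oxysterol list the only filled point below 0 was *Ch25h*, whose call is not read.

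Levels were compared between genes per kilobase of transcript, since longer transcripts gather more reads. With vehicle the order was *Srebf2* (1136 normalized counts per kilobase), *Sqle* (1038), *Nr1h2* (983), *Srebf1* (879), *Insig1* (505), *Hmgcs1* (488), *Abcg1* (48.3) and *Abca1* (3.25). Only *Insig1* and *Hmgcs1* overlapped among neighbours in this order. With melatonin *Nr1h2* (1450) and *Sqle* (1292) were at the top and overlapped each other. They were followed by *Srebf1* (857), *Hmgcs1* (720), *Srebf2* (690) and *Insig1* (538), each of which overlapped the next, and then by *Abcg1* (99.7) and *Abca1* (4.58). *Srebf2* thus moved from the first place to the fifth and *Nr1h2* from the third to the first. Among the 14391 tested genes with a known length, *Srebf2* went from the 88.5th to the 82.4th percentile of level, *Abcg1* from the 34.4th to the 45.5th and *Nr1h2* from the 86.7th to the 91.7th, while *Abca1* stayed low at 6.11 and 10.3.

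Across the 6 samples, which fall into the 2 treatment groups, the members' values were compared as a description. *Hmgcs1* and *Sqle* ran together (Pearson's r = 0.97) and *Srebf2* ran against *Sqle* (r = -0.96), while *Insig1* was closest to *Abca1* (r = 0.89). Over up to 9990 genes whose mean reached 100 normalized counts, the gene most like each member was *Nup93* for *Srebf1* (r = 0.999), *Kmt2a* for *Srebf2* (0.999), *Sass6* for *Insig1* (0.985), *Vps45* for *Hmgcs1* (0.998), *Ppp4r3b* for *Sqle* (0.999), *Trib3* for *Abca1* (0.988), *Dhrs7* for *Abcg1* (0.999) and *Dcaf11* for *Nr1h2* (0.999). Such values are common with 6 samples in 2 groups, since 996 genes exceeded 0.95 with *Nr1h2* and 563 with *Srebf2*, but only 13 did with *Srebf1* and 19 with *Insig1*. *Rxrb* was the third most like gene of *Nr1h2* (0.998).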

How the data were processed

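The deposited table holds normalized counts per gene (a signal, not whole reads), which the authors made by aligning trimmed reads to mm39 with STAR, estimating counts per Gencode gene by expectation-maximization in Partek Flow, removing genes with low counts in all samples and dividing by DESeq2 size factors. About 63.4% to 66.0% of values per sample were whole multiples of the value of 1 read (tolerance 0.01 reads), from which read totals were estimated. A count model was therefore not the main test. Log2(value + 1) was fitted for all genes that reached 10 in any sample with limma 3.58.1 (R 4.3.3, trend), melatonin against vehicle, with Benjamini-Hochberg adjustment over 14419 genes. This scale understates changes of low genes. Ratios were tested by two-sided exact permutation (scipy 1.17.1). Coordinates, transcript lengths, promoters and UTRs came from the GRCm39 Gencode annotation, and motif shares left out chromosome 18.

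The members and lists were chosen with earlier results of these data known. Genes named were the members, a set of pathway genes, and in each list up to 4 genes called with the largest changes and a mean of at least 100. Exceptions are marked, and some genes of the lists enter the counts but are not reported here. Alternatives covered pseudocounts, filters, scaling, voom on estimated counts, sample weights, a replicate block, length and GC corrections and left-out samples. The script was tested on simulated data. Intervals cover the spread between samples.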

Additional observations from a re-analysis of the deposited data

How the results depend on the processing

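*Srebf2*, *Abcg1* and *Nr1h2* kept their direction and call in all 20 alternatives, and *Hmgcs1* and *Sqle* in 19. Calls near the threshold were lost in 8 alternatives for *Lpcat3*, 9 for *Fdps*, 10 each for *Cyp51*, *Idi1* and *Mbtps2* and 11 for *Hsd3b7*. For *Mbtps1* the call was lost in 7, and the direction changed in 1 more. The correction for transcript length gave log2 fold changes of 0.32 for *Hmgcs1*, 0.12 for *Sqle*, -0.28 for *Srebf1*, -0.10 for *Insig1*, -0.24 for *Npc1*, -0.071 for *Fdft1* and -0.032 for *Mbtps1*, with 24 sterol genes higher and 17 lower. The GC correction gave -0.0057 for *Insig1* and -0.038 for *Npc1*. Quantile normalization gave 0.020 for *Srebf1* and -0.070 for *Npc1*, upper quartile scaling gave -0.075 for *Npc1*, and sample weights gave -0.12 for *Npc1*. The cause was not tested. Leaving out each sample in turn gave -0.0014 to 0.20 for *Insig1*, -0.22 to 0.90 for *Abca1* and -0.10 to 0.18 for *Npc1*. Without melatonin replicates 2 and 3, the values were -1.19 for *Abca1*, -0.14 for *Insig1*, 0.021 for *Scap* and -0.043 for *Fdft1*.

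An adjusted p of 0.01 left 2188 genes higher and 2267 lower, with 25 sterol genes higher. A minimum absolute log2 fold change of 1 left 866 higher and 1392 lower, with 7 and 5 sterol genes. A mean of at least 100 left 7 sterol genes lower and took *Abca1* out of the test, since fewer genes were tested. The same-numbered samples did not deviate together (r = -0.11, 0.14 and -0.19 over 9990 genes), and not every sample correlated best with its own number, so the numbers were not taken as pairs. With a replicate block, 3160 genes were higher and 3278 lower, 36 and 11 of them sterol genes. Depth limited *Abca1*, *Nr1h3* and *Ch25h* the most, and 3 samples per group limited the ratios.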
